A study of Mus musculus with 27 samples.

Results

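The pericentral hepatocyte genes described here are Glul, Oat, Slc1a2, Rhbg, Tbx3, Slc13a3, Cyp1a2 and Slc22a3. They were chosen by symbol, through the Ensembl identifier of each row, and were 8 of the 55414 genes counted. All 8 passed the filter of at least 10 counts on average per library and were among the 14114 genes tested. RNA was taken from total liver homogenate of 27 female Balb/c mice, which were 8 weeks of age when obtained, before the treatments. The control group had 4 mice given olive oil into the peritoneum and PBS into the tail vein. The other groups without fibrosis had 3 mice each and received olive oil together with 4MU by gavage, siLuc-LNP or siHAS2-LNP. Fibrosis was induced by intraperitoneal CCl4. Only 2 mice received CCl4 without a further treatment (the CCl4 group), whereas 4 mice each received it with 4MU, with siLuc-LNP or with siHAS2-LNP. CCl4 injections were repeated for a fortnight, and the treatments began before the first of them. 4MU (4-methylumbelliferone), given in carboxymethyl cellulose, inhibits hyaluronan synthesis. siHAS2-LNP is a lipid nanoparticle with an siRNA against the hyaluronan synthase Has2, and siLuc-LNP carries an siRNA against luciferase, which mice lack. The particles were injected into the tail vein. The groups with and without CCl4 under the same treatment are called an arm, so that there are 4 arms (control, 4MU, siLuc-LNP and siHAS2-LNP). Mice are numbered as in the replicate labels.

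Blood crosses the liver lobule from the portal tract to the central vein, and hepatocytes along this path express different enzymes. Around the central vein, Wnt signals from the endothelium keep beta-catenin active in hepatocytes. The hepatocytes closest to the vein take up ammonia and glutamate that escaped the periportal urea cycle and turn them into glutamine. The same zone holds most of the cytochrome P450 enzymes, among them Cyp2e1, which converts CCl4 into reactive radicals. CCl4 injury is therefore centred on this zone.

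The members differ in role. Glul, glutamine synthetase, joins ammonia to glutamate. Oat, ornithine aminotransferase, makes glutamate semialdehyde from ornithine. Slc1a2 is a glutamate importer of the plasma membrane, and Rhbg is an ammonium transporter. Tbx3 is a T-box transcription factor and a known target of beta-catenin in liver. Cyp1a2 is a cytochrome P450 of drug and xenobiotic metabolism that the aryl hydrocarbon receptor can induce. Slc13a3 carries dicarboxylates with sodium, and Slc22a3 is an organic cation transporter.

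In GRCm39 Glul lies on chromosome 1 from 153775690 to 153785469, Oat on chromosome 7 from 132159153 to 132191517, Slc1a2 on chromosome 2 from 102488574 to 102621129 and Rhbg on chromosome 3 from 88150181 to 88162043. Tbx3 lies on chromosome 5 from 119806298 to 119822797, Slc13a3 on chromosome 2 from 165246948 to 165315268, Cyp1a2 on chromosome 9 from 57584196 to 57590986 and Slc22a3 on chromosome 17 from 12637847 to 12726614. Exons of Slc22a3 share 420 bases with Plg on the opposite strand, which had 20171 to 75896 counts per library. Because the strand setting of the counting is not stated, reads of these 2 genes may not have been told apart, and Slc22a3 is uncertain for that reason. Rhbg shares 1190 exonic bases with Gm38392 on the same strand, which had 0 to 5 counts. Tbx3 shares 1468 exonic bases with Tbx3os1 on the opposite strand, which had 7 to 145 counts. The other members shared exonic bases with genes of at most 27 counts.

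The RefSeq promoter table (GRCm38.p6) held 6 of the 8 members, Glul, Oat, Slc1a2, Slc13a3, Cyp1a2 and Slc22a3. The 250 bases before each start were placed in GRCm39 by an exact match that was the only one on its chromosome. They were searched on both strands for CTTTGA, a core of the site bound by the TCF/LEF partners of beta-catenin (TCAAAG on the other strand), and for GCGTG, the core of the site of the aryl hydrocarbon receptor (CACGC). The motifs do not overlap each other in these windows. CTTTGA was found in 13.8% of the 32851 promoters of the table and GCGTG in 28.2%. Of the members, Slc1a2 held CTTTGA 2 times, Slc22a3 2 times and Cyp1a2 1 time, whereas Glul, Oat and Slc13a3 held none. GCGTG was in none of the 6. A match describes letters only, and the window is a small part of the DNA that may control a gene.

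The window of Glul is shown because this gene fell in every arm, those of Slc1a2 and Slc22a3 because they also did and hold the motif, and that of Cyp1a2 because its response differed from theirs. Capitals mark CTTTGA or its reverse complement TCAAAG, and each sequence is written 5′ to 3′ on the strand of its gene. Glul is at chr1:153775425-153775674 on the + strand, Slc1a2 at chr2:102536533-102536782 on the + strand, Slc22a3 at chr17:12726592-12726841 on the - strand and Cyp1a2 at chr9:57590939-57591188 on the - strand.
Glul: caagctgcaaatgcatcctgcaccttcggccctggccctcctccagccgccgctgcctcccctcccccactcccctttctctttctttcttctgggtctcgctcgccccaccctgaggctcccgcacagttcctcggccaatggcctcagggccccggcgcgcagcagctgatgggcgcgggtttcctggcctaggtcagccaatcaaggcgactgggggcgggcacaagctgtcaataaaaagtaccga
Slc1a2: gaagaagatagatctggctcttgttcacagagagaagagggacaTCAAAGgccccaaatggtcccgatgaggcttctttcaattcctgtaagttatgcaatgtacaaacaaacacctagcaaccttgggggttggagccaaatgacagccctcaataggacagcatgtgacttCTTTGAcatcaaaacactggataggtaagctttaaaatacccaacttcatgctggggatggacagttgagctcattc
Slc22a3: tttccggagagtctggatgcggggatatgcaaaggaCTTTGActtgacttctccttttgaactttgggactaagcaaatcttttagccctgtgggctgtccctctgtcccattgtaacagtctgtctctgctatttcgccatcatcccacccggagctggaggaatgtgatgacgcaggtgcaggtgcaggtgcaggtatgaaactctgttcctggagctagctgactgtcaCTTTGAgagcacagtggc
Cyp1a2: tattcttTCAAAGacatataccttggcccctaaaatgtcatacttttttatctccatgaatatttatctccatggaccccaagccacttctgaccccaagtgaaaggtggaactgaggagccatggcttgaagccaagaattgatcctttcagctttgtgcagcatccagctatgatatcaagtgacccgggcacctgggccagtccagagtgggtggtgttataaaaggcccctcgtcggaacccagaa
The start of the Slc1a2 window is that of a RefSeq transcript and lies 48209 bases inside the gene as annotated by GENCODE. The RefSeq start of Glul lay 15 bases before the annotated start of the gene, and those of Slc22a3 and Cyp1a2 lay 23 and 48 bases inside the annotated gene.

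Library totals ran from 7044386 to 29425937 counts, with the lowest in a CCl4 + siHAS2-LNP mouse. CCl4 + siLuc-LNP mouse 3 stood apart from the other 3 of its group (chi-square per degree of freedom of 353 to 458, against 74.8 to 132 among the others). Has2, the target of the siRNA, had 0 counts in 25 of 27 libraries and at most 2, so knockdown could not be checked in these data. The homogenate carries no position in the lobule, and the zone of the genes was not checked here. The hepatocyte reference genes, Alb and 7 others, summed to 105216 CPM or more in every liver. CPM is the count divided by the TMM-scaled library total, in the usual parts of that total (counts per 1e6 reads).

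The pericentral genes were lower in livers with CCl4, and Slc1a2, Oat and Glul fell most. In a single fit of edgeR's quasi-likelihood test over all 8 groups, with Benjamini-Hochberg adjustment over 14114 genes, all 8 members were called lower (adjusted p under 0.05) when the CCl4 effect was averaged over the 4 arms. Their median log2 fold change was −1.89, and 25.6% of all tested genes were called lower in this average, with a median of −0.02 over all genes. In bulk tissue, fewer cells of a type and less RNA per cell cannot be told apart. CCl4 lowered 7 members against control, beside 16.1% of all genes. The exception was Slc13a3, at −1.01 (adjusted p = 0.0823). In the 4MU arm 5 members were lower, beside 10.5% of all genes, and in the siLuc-LNP arm 6, beside 11.2%. Without CCl4 + siLuc-LNP mouse 3 the siLuc-LNP arm gave 7, with Cyp1a2 then at −1.34 (adjusted p = 0.00689), and the averaged effect gave 8. In the siHAS2-LNP arm 6 members were lower, beside 5.09% of all genes. No member was called higher in any arm.

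Separation of the mice was as follows. All CCl4 mice were below all control mice for 7 members, which held for 24.9% of all tested genes. The corresponding numbers were 6 members and 17.7% of genes in the 4MU arm, 6 members and 12.4% in the siLuc-LNP arm, and 7 members and 12.5% in the siHAS2-LNP arm. When the 14 mice given CCl4 were set against the other 13, all CCl4 mice were below all others for Glul, Oat, Slc1a2 and Slc22a3, which held for 1.37% of all tested genes. The plot of CPM by mouse shows this separation and the overlap of the other 4 members.

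**Figure D1:**
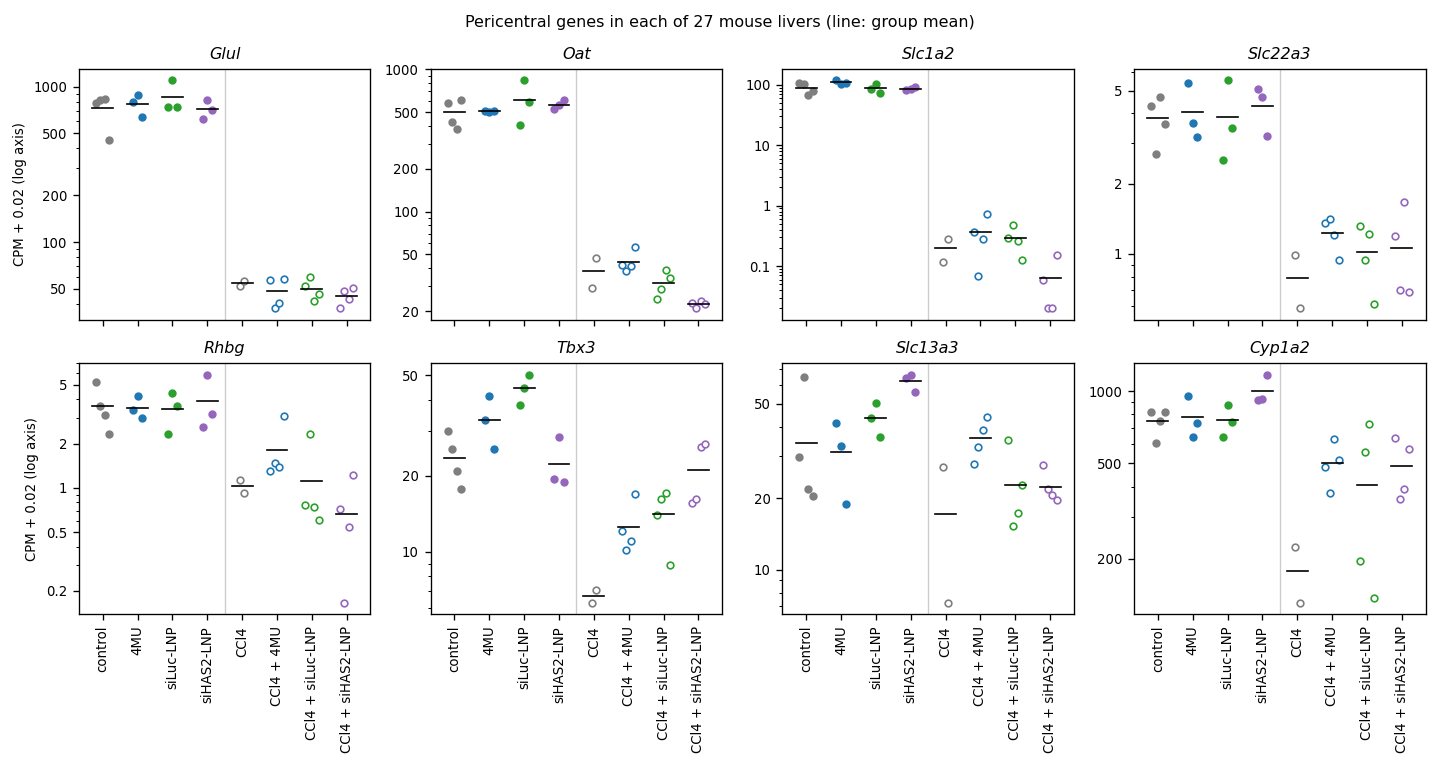
CPM of the 8 members in each of 27 livers, plotted as CPM + 0.02 on a log axis so that a count of 0 can be shown. Filled points are mice without CCl4, open points mice with CCl4, and lines are group means. Glul, Oat, Slc1a2 and Slc22a3 leave a gap between all mice without and all mice with CCl4, and the other 4 overlap.

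Glul had 789, 819.5, 832 and 452 CPM in the control mice. The CCl4 mice had 52.3 and 56.3 CPM. With 4MU and no CCl4 the values were 800.3, 884 and 637 CPM, and with 4MU and CCl4 they were 57.4, 37.5, 40.4 and 58.0 CPM. The lowest mouse without CCl4 was thus above the highest with CCl4, also with control mouse 4 well below the others of its group. The siLuc-LNP mice had 741, 1098 and 736 CPM and the CCl4 + siLuc-LNP mice 51.8, 59.8, 41.7 and 46.2 CPM. The siHAS2-LNP mice had 618, 823 and 707 CPM and the CCl4 + siHAS2-LNP mice 37.5, 48.6, 43.0 and 50.5 CPM. The fall was of similar size in the 4 arms, with 5.81% to 7.51% of the mean without CCl4 left. The log2 fold change was −3.73 ± 0.29 (SE) in the control arm, −4.00 ± 0.23 with 4MU, −4.11 ± 0.23 with siLuc-LNP and −4.00 ± 0.23 with siHAS2-LNP, with an averaged effect of −3.96 ± 0.13 (adjusted p = 3.89e-17). When each mouse was left out in turn, the control arm gave −3.90 to −3.65.

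Oat had 583, 425, 380.4 and 610.1 CPM in the control mice and 28.9 and 47.5 CPM in the CCl4 mice. The 4MU mice had 513, 505 and 512 CPM, and the CCl4 + 4MU mice 42.0, 38.6, 41.3 and 56.2 CPM. In both arms the groups were far apart. The siLuc-LNP mice spread more widely, with 407, 838 and 593 CPM, and fell to 24.1, 28.6, 38.6 and 34.2 CPM with CCl4. The siHAS2-LNP mice had 525, 559.5 and 604 CPM and the CCl4 + siHAS2-LNP mice 22.7, 20.9, 23.6 and 22.3 CPM, the lowest group mean of Oat. The log2 fold change was −3.71 ± 0.30 in the control arm, −3.52 ± 0.23 with 4MU, −4.29 ± 0.23 with siLuc-LNP and −4.65 ± 0.24 with siHAS2-LNP (averaged adjusted p = 3.89e-17).

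Slc1a2 fell furthest and was nearly lost. The control mice had 2136, 1753, 1578 and 1908 counts and the CCl4 mice 2 and 7 counts. The CCl4 + 4MU mice had 8, 1, 7 and 20 counts and the CCl4 + siLuc-LNP mice 7, 12, 4 and 3. The CCl4 + siHAS2-LNP mice had 1, 0, 0 and 1 counts, against 2056, 1829 and 1512 without CCl4. In that last arm every CCl4 library was at or below 3 counts, so that the fall is given as a lower bound, and Slc1a2 was at least 216-fold lower, with 3 counts set against the smallest scaled total of the group. The fitted log2 fold changes of the other arms were −8.84 ± 0.52 against control, −8.23 ± 0.35 with 4MU and −8.31 ± 0.37 with siLuc-LNP (adjusted p = 4.58e-11, 3.50e-14 and 5.52e-14). Setting Slc1a2 at its bound left the median of the 8 members in the siHAS2-LNP arm at −2.36. In the averaged effect, Oat ranked 23 and Glul 24 from the lowest of 14114 genes. No rank is given for Slc1a2, since its average takes in the libraries at the floor.

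Rhbg was a low gene with a smaller fall. It had 2.29 to 5.19 CPM in control mice and 0.904 to 1.12 CPM in CCl4 mice, and the log2 fold change was −1.81 ± 0.57 (adjusted p = 0.0159). This call was lost without CCl4 mouse 1 (adjusted p = 0.0588) or without CCl4 mouse 2 (adjusted p = 0.157), and with scaling to hepatocyte reference genes (−1.16, adjusted p = 0.0791). In the 4MU arm Rhbg had 2.94 to 4.18 CPM without and 1.29 to 3.06 CPM with CCl4, which overlapped, and it was not called at −0.95 ± 0.44 (adjusted p = 0.122). Without CCl4 + 4MU mouse 4, the highest of its group, the value was −1.35 (adjusted p = 0.0458). In the siLuc-LNP arm it was lower by −1.63 ± 0.46 (adjusted p = 0.0113), a call that was lost without siLuc-LNP mouse 2 (adjusted p = 0.0579). In the siHAS2-LNP arm it was lower by −2.74 ± 0.50 (adjusted p = 6.44e-04), with 2.59 to 5.85 CPM without and 0.147 to 1.20 CPM with CCl4.

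Slc22a3, the organic cation transporter, was also low and fell to about the same level in every arm. It had 2.52 to 5.53 CPM over the 13 mice without CCl4 and 0.565 to 1.65 CPM over the 14 mice with CCl4. The log2 fold changes were −2.32 ± 0.42, −1.74 ± 0.33, −1.94 ± 0.33 and −1.98 ± 0.34 in the control, 4MU, siLuc-LNP and siHAS2-LNP arms, and all passed the test. The adjusted p of the averaged effect was 1.59e-09.

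Tbx3 fell in 3 arms and did not pass the test in the siHAS2-LNP arm. The control mice had 30.0, 25.5, 21.0 and 17.7 CPM and the CCl4 mice 6.28 and 7.08 CPM. The siLuc-LNP mice had 38.2, 44.6 and 50.3 CPM and the CCl4 + siLuc-LNP mice 13.95, 16.2, 17.2 and 8.87 CPM. Both pairs of groups were separate. The siHAS2-LNP mice had 19.5, 28.5 and 19.0 CPM and the CCl4 + siHAS2-LNP mice 15.6, 16.2, 26.1 and 26.8 CPM, which overlapped. The log2 fold change was −1.81 ± 0.31 against control (adjusted p = 7.44e-05), −1.41 ± 0.24 with 4MU (adjusted p = 1.53e-04), −1.66 ± 0.24 with siLuc-LNP (adjusted p = 1.92e-05) and −0.09 ± 0.25 with siHAS2-LNP (adjusted p = 0.862, 95% interval −0.59 to 0.42), which was 0.11 with scaling to hepatocyte reference genes. The difference of the CCl4 effect between the siHAS2-LNP and siLuc-LNP arms was 1.58 ± 0.35 for Tbx3, which had an unadjusted p of 1.26e-04 and an adjusted p of 0.104. It thus missed the threshold, which 0.0354% of all genes passed. It passed without CCl4 + siHAS2-LNP mouse 1 (adjusted p = 0.0472). By DESeq2 the adjusted p of this difference was 0.0122.

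Cyp1a2, the P450 enzyme, had a level close to that of Glul in CPM without CCl4. The control mice had 818, 607, 753 and 821 CPM and the CCl4 mice 224 and 131 CPM. The CCl4 + 4MU mice had 485, 375, 632 and 516 CPM, against 956, 642 and 735 CPM with 4MU alone. All CCl4 + 4MU mice were below all 4MU mice. The CCl4 + siLuc-LNP mice were the most scattered, with 196, 558, 729 and 137 CPM, against 645, 879 and 744 CPM with siLuc-LNP alone. The CCl4 + siHAS2-LNP mice had 640.1, 354, 389 and 573 CPM, against 919, 925 and 1171 CPM with siHAS2-LNP alone. The log2 fold change was −2.08 ± 0.46 against control and passed the test (adjusted p = 0.00128), which without CCl4 mouse 2 it did not (−1.72, adjusted p = 0.0552). The values with 4MU, siLuc-LNP and siHAS2-LNP were −0.63, −0.90 and −1.04, and these did not pass (adjusted p = 0.219, 0.0735 and 0.0611). The last passed by DESeq2 (adjusted p = 0.0276) and by limma-voom (0.00357).

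Slc13a3, the dicarboxylate carrier, varied widely between mice of a group. The control mice had 29.6, 64.9, 21.7 and 20.5 CPM and the CCl4 mice 26.9 and 7.23 CPM. It fell in the siHAS2-LNP arm, from 56.0 to 66.2 CPM without CCl4 to 19.6 to 27.5 CPM with CCl4 (log2 fold change −1.47 ± 0.37, adjusted p = 0.00990). In the 4MU arm it was 18.9 to 41.5 CPM without and 27.8 to 43.8 CPM with CCl4, and the log2 difference was 0.20 with a 95% interval of −0.56 to 0.97. In the siLuc-LNP arm it was 36.3 to 50.3 CPM without and 15.3 to 35.1 CPM with CCl4, which did not overlap, and the log2 fold change of −0.94 ± 0.37 did not pass (adjusted p = 0.0666). It passed without CCl4 + siLuc-LNP mouse 1 (−1.22, adjusted p = 0.0278). Without CCl4 mouse 1 the control arm gave −2.22 for Slc13a3 (adjusted p = 0.00465), and without CCl4 mouse 2 it gave −0.32 (adjusted p = 0.714), so 1 mouse decided that call.

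**Figure D2:**
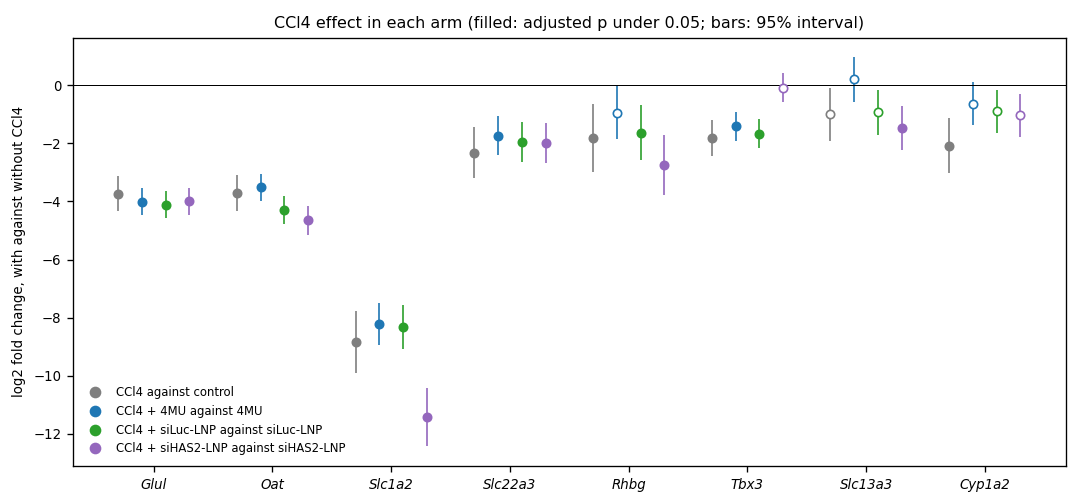
Log2 fold change of each member with against without CCl4 in the 4 arms, with 95% intervals and filled points where the adjusted p was under 0.05. Glul, Oat, Slc1a2 and Slc22a3 are filled in all 4 arms, and Tbx3 in the siHAS2-LNP arm sits at −0.09. The Slc1a2 point of the siHAS2-LNP arm is a fitted value over libraries of 0 or 1 counts and is not a measure of size.

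The CCl4 effect was compared between arms in 3 differences, and no member passed the test in these. The siHAS2-LNP arm was not set against the control or the 4MU arm. In the 4MU arm against the control arm, where 5.67% of all genes passed, the unadjusted p was under 0.05 for Cyp1a2 (1.45 ± 0.57, adjusted p = 0.114) and Slc13a3 (1.21 ± 0.58, adjusted p = 0.188). For the siLuc-LNP arm against the control arm, where 0.00709% of all genes passed, it was under 0.05 for Cyp1a2 (1.18 ± 0.57, adjusted p = 0.498). For the siHAS2-LNP arm against the siLuc-LNP arm it was under 0.05 for Tbx3 as above and for Slc1a2 (adjusted p = 0.195), whose CCl4 + siHAS2-LNP libraries held 0 or 1 counts. DESeq2 called 0, 0 and 1 members in these differences, the last being Tbx3. The 95% interval for Glul ran from −0.92 to 0.39 for the 4MU arm and from −0.51 to 0.72 for the siHAS2-LNP arm, each minus its reference arm.

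Per length the members spanned a wide range. Levels were expressed as RPKM (CPM divided by the merged exon length in kilobases) with exon lengths of GENCODE vM39. In control liver the means were 368 ± 49.1 (SD, n = 4) for Cyp1a2, 183 ± 46.0 for Glul, 64.1 ± 14.6 for Oat, 6.39 ± 1.42 for Slc1a2, 6.39 ± 3.90 for Slc13a3, 2.86 ± 0.65 for Tbx3, 1.77 ± 0.61 for Rhbg and 0.703 ± 0.165 for Slc22a3. Slc1a2 and Slc13a3 did not differ beyond their spread, and the mice of Tbx3 (2.15 to 3.64) and Rhbg (1.14 to 2.59) overlapped. In CCl4 liver (n = 2) Cyp1a2 had 87.1 RPKM, Glul 13.8, Oat 4.90, Slc13a3 3.19, Tbx3 0.811, Rhbg 0.504, Slc22a3 0.142 and Slc1a2 0.0129. Slc1a2 thus went from level with Slc13a3 to the last place, and the other members kept their order in these group means.

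**Figure D3:**
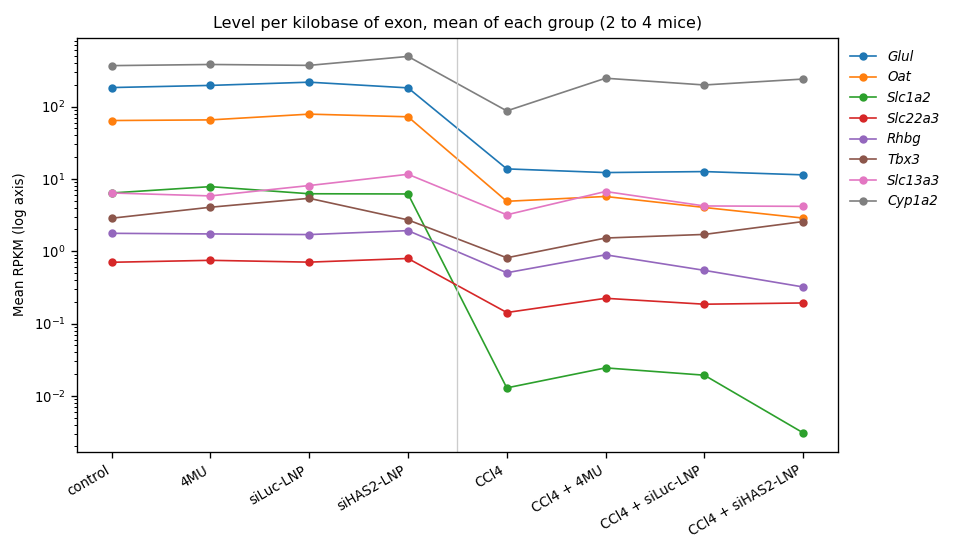
Mean RPKM of each member in the 8 groups on a log axis, with 2 to 4 mice per group and lines drawn only to guide the eye. Slc1a2 crosses from 6.39 in control to 0.0129 in CCl4 and to the last place in all 4 groups with CCl4, and Cyp1a2 is highest throughout.

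The genes with the most similar pattern over the 8 group means were found among 12709 other protein-coding genes, by the root mean square difference of log2 CPM after each gene was centred on its own mean. For Glul these were Cyp2c40 (0.377), Mup10 (0.399) and Lhpp (0.434), against a median over all genes of 1.99. For Oat they were Lhpp (0.381), Mup2 (0.391) and Mup17 (0.446), and Glul itself was at 0.239. For Slc1a2 they were Cyp3a16 (0.504), Cyp3a41a (0.562) and Cyp3a41b (0.666). The median over all genes was 2.04 for Oat and 4.285 for Slc1a2. Counts of the Mup, Cyp2c and Cyp3a families are uncertain, as reads that map to several copies were dropped.

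For Tbx3 the nearest genes were Socs2 (0.228) and Sp5 (0.276), for Rhbg they were Fcna (0.224), Cib2 (0.303) and Lipg (0.313), and for Slc22a3 they were Ugt3a1 (0.177), Pon1 (0.183) and Npr2 (0.190). For Cyp1a2 they were Cimip3 (0.088), Cyp27a1 (0.143) and Nat8f1 (0.148), and for Slc13a3 they were Cish (0.226), Gpx1 (0.230) and Adss1 (0.244). The median over all genes was 0.822 for Tbx3, 0.972 for Rhbg, 0.992 for Slc22a3, 0.801 for Cyp1a2 and 0.653 for Slc13a3. Distances are to be read against the median of the same member. The likeness was computed over 8 group means only and is given as a description.

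Between mice of the same CCl4 status, no relation of Glul with another member passed the threshold after adjustment. Log2 CPM of Glul was compared with that of each other member within the 14 mice with CCl4 and within the 13 without, which made 14 relations, by permutation tests of 100000 resamples. With CCl4, Slc1a2 had Pearson r = 0.617 (permutation p = 0.0208, adjusted 0.0973) and Spearman rho = 0.697 (permutation p = 0.00722, adjusted 0.101), and r was 0.519 without the 2 mice farthest from the median of Glul. Without CCl4, Rhbg had r = 0.659 (permutation p = 0.0133, adjusted 0.0973) and rho = 0.670 (permutation p = 0.0144, adjusted 0.101), with r = 0.577 without the 2 farthest mice. Tbx3 had r = 0.626 (permutation p = 0.0167, adjusted 0.0973) and rho = 0.560 (permutation p = 0.0498, adjusted 0.232), and r was 0.371 without the 2 farthest mice. The other 11 relations had r between −0.405 and 0.374 (unadjusted permutation p of 0.151 or more).

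As deviations from the group means, which removes differences between treatments, Slc1a2 with CCl4 had Pearson r = 0.701 (permutation p = 0.00503, adjusted 0.0352). Rhbg without CCl4 had r = 0.742 (permutation p = 0.00344, adjusted 0.0352). The permutations did not allow for the group means taken out, so these p-values are too small and are not read as calls. Without the 2 farthest mice r was 0.500 for Slc1a2 and 0.680 for Rhbg. Their adjusted p by Spearman's rho was 0.0797 each. Slc1a2 had 0 to 20 counts in the CCl4 libraries.

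Other genes of the same zone and pathways were examined as fixed lists, each described by its count and its median. In the averaged CCl4 effect 26.3% of all genes were higher and 25.6% lower, against which the counts of each list are to be read. Of 27 other pericentral hepatocyte genes, 20 were lower and none higher, with a median log2 fold change of −0.95. The largest falls were in Cyp2a5 (−5.41 ± 0.27), a coumarin hydroxylase, Lhpp (−3.34 ± 0.14), a phosphatase, and Cyp2e1 (−2.83 ± 0.20), the enzyme that activates CCl4. Cyp2c54 (−1.69 ± 0.18), Sp5 (−1.59 ± 0.31) and Notum (−1.47 ± 0.13) followed. Sp5 was a low gene, with 16 to 47 counts in control mice and 1 and 12 in CCl4 mice. Its mice with and without CCl4 overlapped in the 4MU and siHAS2-LNP arms. Sp5 is a transcription factor target of Wnt signalling and Notum is a secreted Wnt inhibitor. Not all Wnt-responsive genes moved past the test in the averaged effect, since Axin2 (0.00), Rnf43 (0.05) and Znrf3 (−0.12) did not pass. For Axin2, Rnf43 and Znrf3 this average combined arms whose group means moved in different directions. Mean CPM of Axin2 went from 5.547 to 3.973 in the control arm and from 6.039 to 10.43 in the siHAS2-LNP arm. That of Rnf43 went from 20.68 to 15.71 and from 19.6 to 30.23, and that of Znrf3 from 8.267 to 5.429 and from 8.209 to 8.972. In the 4MU arm the means of Axin2 and Rnf43 were lower with CCl4, and that of Znrf3 went from 7.768 to 7.876. No test by arm is given for these genes. In the averaged effect, 6 of 20 periportal genes were lower and 4 higher, with a median of −0.17, which is near the shares over all genes. Cdh1, E-cadherin, rose (2.60 ± 0.13), as did Cps1 (0.79 ± 0.14), the first enzyme of the urea cycle, and Hsd17b13 (0.69 ± 0.12). Pck1 (−1.01 ± 0.24) and G6pc1 (−0.96 ± 0.26), enzymes of gluconeogenesis, and Pigr (−0.96 ± 0.12) fell. By arm, the periportal median was −0.75 (control), 0.395 (4MU), 0.01 (siLuc-LNP) and −0.20 (siHAS2-LNP). In the same order 1, 2, 3 and 2 of the 20 were called higher and 6, 0, 2 and 2 lower. Over all genes 18%, 13.2%, 13% and 7.74% were called higher and 16.1%, 10.5%, 11.2% and 5.09% lower. Which of the named periportal genes passed in each arm is not given. For the 8 hepatocyte reference genes the medians were −0.54, 0.03, −0.15 and −0.20 in the same order. For the other pericentral genes they were −1.72, −0.46, −0.72 and −0.77.

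Of 18 tested genes that handle glutamine, glutamate and ornithine, 7 rose and 6 fell, with a median of 0.16, shares not far above those over all genes. By arm, 6 of the 18 were called lower in CCl4 against control and 0 in the 4MU, siLuc-LNP and siHAS2-LNP arms. Called higher were 7, 4, 6 and 1 in the same order. In the 4MU arm the lowest value of the list was −0.18. In the averaged effect, Pycr1 (2.298 ± 0.22) and Aldh18a1 (1.85 ± 0.21), enzymes of proline synthesis, rose, and Prodh (−1.19 ± 0.26), which breaks proline down, fell. The amino acid importers Slc1a5 (0.85 ± 0.13) and Slc1a4 (0.70 ± 0.15) rose, so these carriers of the Slc1 family moved in the direction opposite to Slc1a2. Slc1a1 and Slc1a3 were below the filter. Of 7 tested carriers related to Slc13a3, Slc22a3 and Rhbg, 6 fell and none rose, with a median of −0.68. Values of 1 of the 6 are not reported here. The others were Slc13a2 (−1.05 ± 0.36), Slc13a5 (−0.90 ± 0.24), Slc22a5 (−0.68 ± 0.15), Slc25a1 (−0.58 ± 0.12) and Slc47a1 (−0.46 ± 0.08).

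Of 10 tested genes of Wnt and beta-catenin signalling, 1 rose and 2 fell in the averaged effect, with a median of −0.02, shares below those over all genes. Rspo3, an endothelial amplifier of Wnt signalling, fell (−0.65 ± 0.15), as did Tcf7 (−0.41 ± 0.12), and Ctnnb1, which encodes beta-catenin, rose (0.35 ± 0.12). Wnt2 was at −0.09 and did not pass, and Wnt9b was below the filter. By arm, 1 of the 10 was called lower in the 4MU arm. In each of the control, siLuc-LNP and siHAS2-LNP arms 0 were called in either direction. Of 6 tested genes of the aryl hydrocarbon receptor, 2 rose and none fell in the averaged effect, with a median of 0.26. Cyp1a1 rose (1.14 ± 0.26, adjusted p = 7.89e-04) while Cyp1a2, which shares its inducer, fell (−1.16 ± 0.19, adjusted p = 2.26e-05). Arnt rose (0.39 ± 0.07), and Ahr itself was at 0.14 and did not pass. This average of Ahr combined arms that moved in opposite directions. Its mean CPM went from 37.08 to 22.07 in the control arm and from 26.59 to 39.06 with 4MU. It went from 34.85 to 48.42 with siLuc-LNP and from 45.82 to 55.1 with siHAS2-LNP. In CCl4 against control, 2 of the 6 receptor genes were called higher and 2 lower. In the 4MU, siLuc-LNP and siHAS2-LNP arms 1, 3 and 1 were called higher and 0 lower. The highest value of these genes, Cyp1a1 included, was 2.012 (control), 0.555 (4MU), 2.192 (siLuc-LNP) and 0.714 (siHAS2-LNP). Cyp1a2 passed the test in the control arm only.

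**Figure D4:**
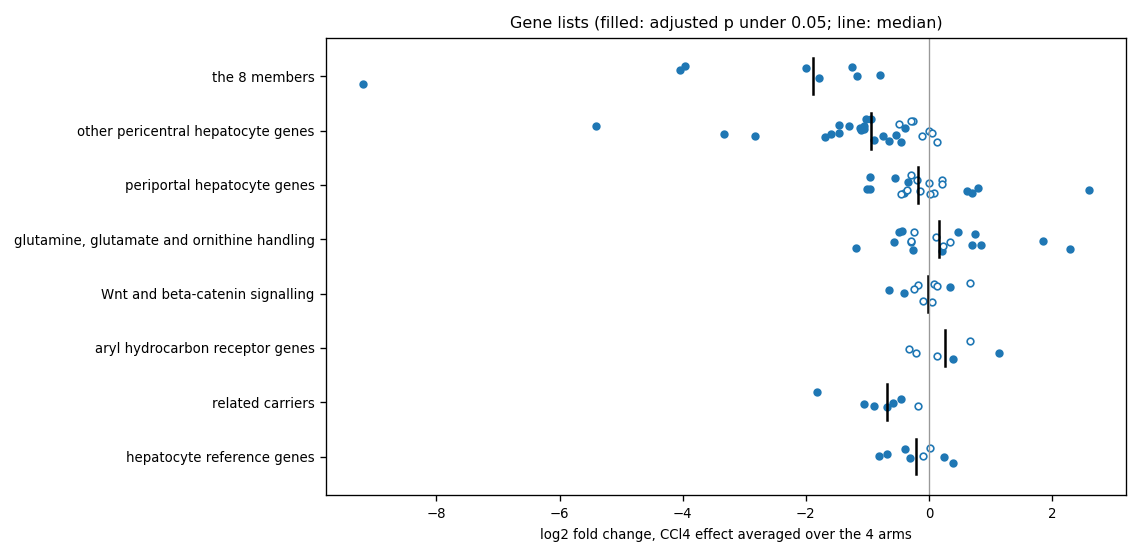
Log2 fold change of the CCl4 effect averaged over the 4 arms, for the 8 members and the tested genes of 7 lists. Filled points had an adjusted p under 0.05 and lines are medians. The leftmost member point is Slc1a2, a fitted value that rests in part on libraries at the floor. The members and the other pericentral genes lie mostly below 0, with medians of −1.89 and −0.95, and the periportal genes lie on both sides.

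Markers of other cells moved with CCl4. The 6 stellate cell and myofibroblast markers summed to 41.6 to 75.9 CPM in control and 403 to 656 CPM in CCl4 liver. The 6 cholangiocyte markers summed to 34.5 to 77.1 and 241 to 298 CPM, and the 3 proliferation markers to 4.604 to 8.755 and 201 to 435 CPM. The 7 macrophage markers, at 225 to 369 and 217 to 259 CPM, the 5 endothelial markers, at 65.1 to 105.4 and 89.2 to 102 CPM, and the 4 lymphocyte markers, at 15.7 to 18.1 and 18.5 to 20.2 CPM, differed less between these groups. In the averaged effect, 5 of 6 stellate markers, all 5 tested cholangiocyte markers and all 3 proliferation markers were higher, and of the others 1 of 7 macrophage, 3 of 5 endothelial and 1 of 4 lymphocyte markers were higher and 3, 1 and 1 were lower. No gene of these lists was at 0 in all mice. Of the 8 hepatocyte reference genes 2 were higher and 4 lower in the averaged effect, with a median of −0.21. They summed to 199119 to 235895 CPM in control, 105216 to 175111 in CCl4 and 199557 to 234886 in CCl4 + 4MU liver.

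When libraries were scaled to these hepatocyte reference genes, the median of all genes shifted by 0.68 (log2) for CCl4 against control and by 0.23 in the averaged effect. All 8 members were still lower in the averaged effect, with log2 fold changes of −3.71 for Glul, −3.78 for Oat, −1.56 for Rhbg, −1.003 for Tbx3, −0.62 for Slc13a3, −0.98 for Cyp1a2 and −1.79 for Slc22a3. No value is given for Slc1a2, whose average rests in part on libraries at the floor. The part of the other cells in these results was not tested further.

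Treatment of fibrotic mice was then compared with CCl4 alone, where the 2 mice of the CCl4 group were shared by all 3 comparisons. Glul stayed close to its level in the CCl4 group. Its log2 difference was −0.17 with 4MU (95% interval −0.66 to 0.32), −0.12 with siLuc-LNP (−0.62 to 0.37) and −0.28 with siHAS2-LNP (−0.77 to 0.22). The highest upper bound of these intervals was 0.37. With scaling to the hepatocyte reference genes, which shifted the median of all genes by −0.66, −0.51 and −0.50, Glul was lower at −0.82 (adjusted p = 0.0176), −0.65 (adjusted p = 0.0868) and −0.78 (adjusted p = 0.0340).

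Tbx3 and Cyp1a2 were higher with 4MU and with siHAS2-LNP. With 4MU, 2 of the 8 members passed the test, beside 18.3% of all genes. Tbx3 was at 10.1 to 16.9 CPM against 6.28 and 7.08 CPM in CCl4 (log2 0.91 ± 0.30, adjusted p = 0.0352), and Cyp1a2 at 375 to 632 CPM against 131 and 224 CPM (2.83-fold, adjusted p = 0.0227). With siHAS2-LNP, 3 of 8 passed, beside 14.4% of all genes. Tbx3 was higher by 1.65 ± 0.31 (adjusted p = 0.00175) and Cyp1a2 by 1.46 ± 0.45 (adjusted p = 0.0303), and Oat was lower by −0.77 ± 0.24 (adjusted p = 0.0338).

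With siLuc-LNP, the particle control, no member passed by edgeR, beside 0.248% of all genes, although Tbx3 (1.07 ± 0.30, unadjusted p = 0.00148) and Cyp1a2 (1.19 ± 0.44, unadjusted p = 0.0123) had values close to those of 4MU and an unadjusted p under 0.05. DESeq2 called 1 member in this comparison, Tbx3 (adjusted p = 0.0257).

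These calls rested on few mice. Without CCl4 mouse 2, no member was called with 4MU or with siHAS2-LNP, and the adjusted p of Tbx3 with siHAS2-LNP was then 0.0519 and of Cyp1a2 with 4MU 0.286. With 4MU, the Tbx3 call was also lost without CCl4 mouse 1 (adjusted p = 0.157), CCl4 + 4MU mouse 1 (0.0509) or CCl4 + 4MU mouse 4 (0.106), and with scaling to hepatocyte genes it was at 0.25 (adjusted p = 0.542). With siHAS2-LNP, the Oat call was lost without CCl4 mouse 2 (−0.40, adjusted p = 0.534) and without each of the 4 CCl4 + siHAS2-LNP mice (adjusted p of 0.0533 to 0.0594), and the Cyp1a2 call without CCl4 mouse 2 (1.10, adjusted p = 0.351), CCl4 + siHAS2-LNP mouse 1 (0.0626) or mouse 4 (0.0577). With hepatocyte scaling Oat with siHAS2-LNP was at −1.34 (adjusted p = 0.00224), Tbx3 with siHAS2-LNP was at 1.17 (adjusted p = 0.0108), and Cyp1a2 at 0.94 with 4MU (adjusted p = 0.0423) and 1.02 with siHAS2-LNP (adjusted p = 0.0395).

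**Figure D5:**
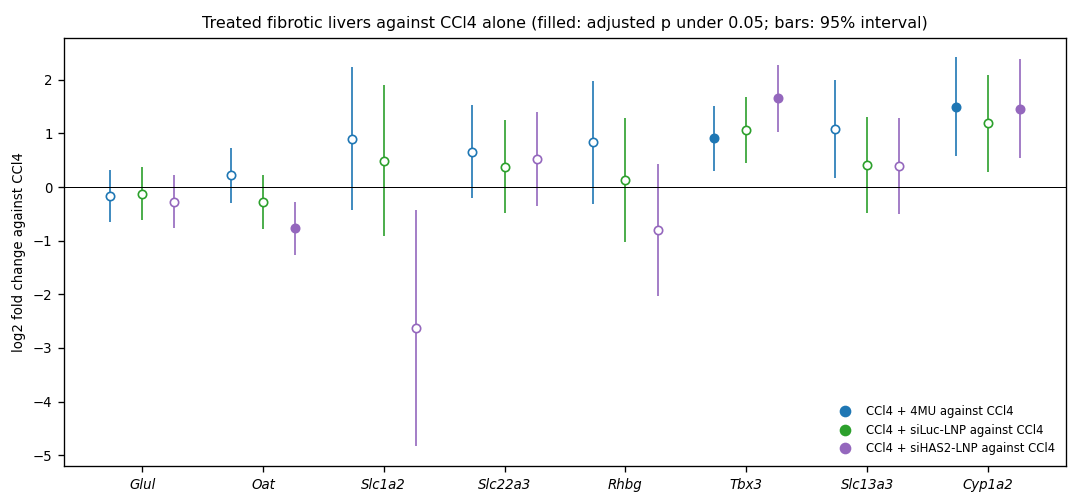
Log2 difference of each member in treated fibrotic liver against CCl4 liver (2 mice, shared by the 3 comparisons), with 95% intervals and filled points where the adjusted p was under 0.05. Glul lies near 0 under all 3 treatments, and Tbx3 and Cyp1a2 lie above 0 under all 3. Slc1a2 libraries held 0 to 20 counts in these groups.

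Called higher were 8.28% of all genes with 4MU, 0.0567% with siLuc-LNP and 7.11% with siHAS2-LNP. Among the other pericentral genes 15 of 27 were higher with 4MU, 1 with siLuc-LNP and 13 with siHAS2-LNP against CCl4, and 0, 0 and 1 were lower. The medians were 1.17, 0.71 and 0.90, against medians of all genes of 0.04, 0.01 and 0.02. The medians of the 8 members were 0.87, 0.40 and 0.06. Of the 20 periportal genes 8, 0 and 3 were higher (medians 0.77, 0.41 and 0.59), and of the 8 hepatocyte reference genes 4, 0 and 1 (medians 0.75, 0.44 and 0.41).

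Markers of other cells also differed in these comparisons. With 4MU all 3 proliferation markers were lower (median −1.80) and no marker of the other lists passed. With siHAS2-LNP 5 of 7 macrophage markers (median −1.50), 3 of 6 stellate markers (median −1.27), 2 of 5 endothelial markers (median −0.82), 1 of 5 tested cholangiocyte markers and 1 of 3 proliferation markers were lower. With siLuc-LNP 1 of 7 macrophage markers was lower. Their part in the values of the members was not tested.

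The siRNA against Has2 was compared with its own control, CCl4 + siHAS2-LNP against CCl4 + siLuc-LNP. No member passed by edgeR, beside 1.09% of all genes, and 3 had an unadjusted p under 0.05. Slc1a2 had 0 or 1 counts against 3 to 12 (unadjusted p = 0.00142, adjusted p = 0.0737). Oat was at −0.49 ± 0.20 (unadjusted p = 0.0245), and Tbx3 at 0.59 ± 0.23 (unadjusted p = 0.0174). Rhbg was at −0.93 ± 0.50 (unadjusted p = 0.0744). DESeq2 called 1 member, Slc1a2 (adjusted p = 0.0324), which passed the filter only through the livers without CCl4. For Glul the 95% interval was −0.56 to 0.25 and for Cyp1a2 −0.43 to 0.97.

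Between 4MU and siHAS2-LNP in mice with CCl4, CCl4 + 4MU against CCl4 + siHAS2-LNP, 2 members passed, beside 1.22% of all genes. Oat was higher with 4MU, 38.6 to 56.2 against 20.9 to 23.6 CPM (0.99 ± 0.20, adjusted p = 0.0172), and the mice did not overlap. This call was lost without CCl4 + 4MU mouse 4 (adjusted p = 0.111), CCl4 + siHAS2-LNP mouse 2 (0.0611) or mouse 3 (0.0844). Slc1a2 had 1 to 20 counts with 4MU against 0 or 1 (adjusted p = 0.0328), at a depth where single reads decide the value. It passed the filter only through the livers without CCl4, so its call is not read as a difference. Rhbg (1.64 ± 0.49, adjusted p = 0.0826) and Tbx3 (−0.74 ± 0.23, adjusted p = 0.0936) did not pass, and passed by DESeq2 (adjusted p = 0.0254 and 0.0471).

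Without CCl4 the groups differed less. No member passed with 4MU against control, beside 0.00709% of all genes, with siLuc-LNP against control, beside 0.213%, or with siHAS2-LNP against siLuc-LNP, beside 0.0425%. An unadjusted p under 0.05 was reached by Tbx3 in each of the 3 comparisons and by no other member. It had 25.5 to 41.5 CPM with 4MU (log2 0.51 ± 0.24, unadjusted p = 0.0452), 38.2 to 50.3 CPM with siLuc-LNP (0.92 ± 0.24, unadjusted p = 8.06e-04, adjusted p = 0.193) and 19.0 to 28.5 CPM with siHAS2-LNP against siLuc-LNP (−0.99 ± 0.26, unadjusted p = 8.38e-04, adjusted p = 0.169). DESeq2 called Tbx3 in the last comparison (adjusted p = 0.0484) and no member in the other 2. The siLuc-LNP group is the reference of the siLuc-LNP arm, and its high Tbx3 level enters the difference between the siHAS2-LNP and siLuc-LNP arms given above.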

How the data were processed

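Polyadenylated RNA of total liver was sequenced as directional paired-end libraries. The authors trimmed reads with Trimmomatic 0.39, aligned them with HISAT2 to GRCm39 with Ensembl release 105 and counted them per gene with featureCounts, leaving out reads with several matches. The deposited values are raw whole-number counts, and the strand setting is not given in the sources used here. Reads that map to copies of a gene are therefore lost, and reads of overlapping genes may be mixed. Of 55414 genes, 54749 were matched to GENCODE vM39, which gave symbols, positions and exon lengths. Library totals were 7044386 to 29425937 counts. The replicate labels do not say how mice were housed or processed, so p-values measure the spread between these samples.

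The filter kept 14114 genes whose mean over libraries was 10 counts or more. The edgeR 4.0.16 quasi-likelihood test with TMM scaling was run in R 4.3.3 in one fit over the 8 groups, with Benjamini-Hochberg adjustment over all tested genes and a threshold of 0.05. The standard error is the fold change divided by the square root of F. The study's own test was DESeq2 and is an alternative here (1.42.0), as are limma 3.58.1 voom with sample weights, DESeq2 size factors, scaling to hepatocyte reference genes, no filter, filterByExpr, a replicate block and fits of the compared groups alone. The scripts were tested on simulated data. CPM and RPKM were computed from the deposited counts with TMM-scaled totals. Correlations used permutation tests in scipy 1.17.1. The floor was 3 counts in a library, and where every library of a group was at or below it the fold is given as a lower bound. Intervals and floors cover counting error or the spread between mice and no other error.

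The members, lists and tests were chosen with earlier results of these data known. Named genes were the members, up to 6 genes of each list with the largest averaged CCl4 effect past the threshold, and the 3 nearest patterns of each member. A few genes that this rule names are not reported here. Axin2, Rnf43, Znrf3, Ahr, Wnt2, Wnt9b, Slc1a1 and Slc1a3 were chosen after their values were seen.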

Additional observations from a re-analysis of the deposited data

Results flagged for a closer look

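In each group of 4 mice, the highest and the lowest value of every member were examined for a gap to the nearest other mouse that exceeded the 95% critical share of the whole range of the group by Dixon. Of 32 groups tested, 3 had such a gap, and chance gives about 1 in 20.

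Glul in control mouse 4 was 451.8 CPM, below 788.6, 819.5 and 831.6 CPM in the others. Rhbg in CCl4 + 4MU mouse 4 was 3.061 CPM, above 1.291, 1.367 and 1.446 CPM. Rhbg in CCl4 + siLuc-LNP mouse 2 was 2.315 CPM, above 0.5892, 0.7204 and 0.7444 CPM. The last 2 values rest on 86 and 60 counts.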

How the results depend on the processing

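All comparisons were recomputed with DESeq2, limma-voom, other scalings and filters and a replicate block. They were also recomputed in fits of the compared groups alone (not for the averaged effect) and without each mouse. Of 1482 recomputed values of 88 single-gene results, 1361 kept their direction and side of the threshold, 56 newly passed, 34 no longer passed and 31 turned sign. The 88 results cover treatment comparisons as well as the CCl4 effect. For groups without CCl4 and differences between arms, only members with an unadjusted p under 0.05 were included. Results that did not pass and stayed so count as kept. Apart from leaving out mice, 6 to 8, 5 to 6, 5 to 8 and 6 to 7 members were called in the control, 4MU, siLuc-LNP and siHAS2-LNP arms and 8 in the averaged effect. Without 1 mouse these were 5 to 7, 5 to 6, 5 to 7, 6 to 7 and 8. In fits of the compared groups alone the filter was applied anew, which removed Slc1a2 from comparisons between groups with CCl4. Where another setting changed a count below, the cause was not tested.

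The number of members called changed as follows. For CCl4 + 4MU against CCl4 it was 1 with limma-voom and 0 to 2 without 1 mouse. For CCl4 + siLuc-LNP against CCl4 it was 1 with DESeq2, 1 with hepatocyte scaling, 2 without the filter and 0 to 2 without 1 mouse. For CCl4 + siHAS2-LNP against CCl4 it was 5 with hepatocyte scaling and 0 to 4 without 1 mouse. For CCl4 + siHAS2-LNP against CCl4 + siLuc-LNP it was 1 with DESeq2, 1 without the filter and 0 without any 1 mouse. For CCl4 + 4MU against CCl4 + siHAS2-LNP it was 4 with DESeq2, 5 without the filter, 1 with hepatocyte scaling, 1 with the replicate block, 1 with only the compared groups and 0 to 3 without 1 mouse. For siLuc-LNP against control it was 1 with limma-voom and 1 without the filter. For siHAS2-LNP against siLuc-LNP it was 1 with DESeq2, 1 with limma-voom and 1 without the filter. The difference of the 4MU and control arms gave 1 with hepatocyte scaling, 2 without the filter, 1 with only the compared groups and 0 to 1 without 1 mouse. That of the siHAS2-LNP and siLuc-LNP arms gave 1 with DESeq2, 2 without the filter and 0 to 1 without 1 mouse. As deviations from group means, 2 relations of Glul were under the threshold in place of 0. The permutations there did not allow for the group means taken out, so these are not read as calls.

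Signs turned for differences that had not passed the test. With hepatocyte scaling these were Tbx3 in the siHAS2-LNP arm (0.108), Oat in CCl4 + 4MU against CCl4 (−0.503), Slc1a2 (−0.017), Rhbg (−0.376) and Slc22a3 (−0.094) in CCl4 + siLuc-LNP against CCl4, and Glul (−0.046), Cyp1a2 (−0.082) and Slc22a3 (−0.029) in CCl4 + 4MU against CCl4 + siHAS2-LNP. In CCl4 + siHAS2-LNP against CCl4 + siLuc-LNP they were Slc13a3 (0.016) and Slc22a3 (−0.128) with limma-voom, and Slc13a3 with the replicate block (0.006).

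Without 1 mouse the ranges crossed 0 for Slc13a3 in the 4MU arm (−0.056 to 0.467), Tbx3 in the siHAS2-LNP arm (−0.210 to 0.114) and Oat in CCl4 + 4MU against CCl4 (−0.106 to 0.595). In CCl4 + siLuc-LNP against CCl4 they did for Oat (−0.597 to 0.108), Rhbg (−0.554 to 0.344) and Slc13a3 (−0.258 to 1.649), and in CCl4 + siHAS2-LNP against CCl4 for Slc13a3 (−0.295 to 1.623). In CCl4 + siHAS2-LNP against CCl4 + siLuc-LNP they did for Slc13a3 (−0.179 to 0.270), Cyp1a2 (−0.031 to 0.696) and Slc22a3 (−0.182 to 0.306), and in CCl4 + 4MU against CCl4 + siHAS2-LNP for Cyp1a2 (−0.092 to 0.196) and Slc22a3 (−0.042 to 0.447). A group left with 1 mouse was assumed to vary like the others.

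Same-numbered mice did not deviate together in every pair of any comparison (correlations of −0.32 to 0.206), so the numbers served as names only. Depth limits Slc1a2 in livers with CCl4 (0 to 20 counts), and Rhbg there had 3 to 86 counts. The CCl4 group of 2 mice limits every comparison against it.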
